A study of Mus musculus with 36 samples.

Results

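The liver transcriptomes of heterozygous Pik3r1 WT/Y657* mice refed for 6 h after a 16 h fast were compared with those of WT/Y657* mice fed ad libitum, to ask which genes had returned to the fed level, which had passed it and which had not come back. The members were taken from the sample labels, and were 12 of the 36 libraries of the series, 6 refed (RF6_MT) and 6 fed (ALC_MT), each from a separate mouse. All 36 mice were male, on a C57Bl/6J background, 16 weeks old and kept on chow. WT/Y657* mice carried 1 knocked-in allele of Pik3r1 with a premature stop codon (Y657*) in every tissue, and wild-type mice carried none. Fed mice were killed before the overnight fast, fasted mice after 16 h without food, and refed mice 6 h after chow was given back. The other 24 libraries were 6 fasted WT/Y657* mice and 6 wild-type mice in each of the fed, fasted and refed states. The clock time of harvest and the amount eaten were not given in the sources used here.

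Pik3r1 encodes p85alpha and other regulatory subunits of class 1 phosphoinositide 3-kinase, which carries the insulin signal from receptor to AKT. The Y657* change truncates the C-terminal SH2 domain. In the liver, feeding raises insulin and glucose, which switch on the lipogenic programme through SREBP1c and ChREBP and switch off gluconeogenic genes through FOXO1. Fasting raises glucagon and free fatty acids, and fatty acids activate PPARalpha, which drives fatty acid oxidation and ketogenesis. Refeeding after a long fast reverses these signals, while secretory protein synthesis, sterol synthesis and ribosome production are known to restart with food.

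Libraries held 12780228 to 15055577 assigned reads in refed and 11375514 to 16246930 in fed mice. Levels are given in CPM, counts scaled to library size with TMM factors, and the values given for a group are the lowest, the median and the highest of its 6 mice, in that order. Log2 fold changes are refed minus fed with their standard error (SE), n = 6 mice a group, and a gene was called where the adjusted p of edgeR's quasi-likelihood test (two-sided, Benjamini-Hochberg over the 13945 genes tested) was under 0.05. Pik3r1 itself counted 128, 152 and 166 CPM in refed and 115, 133 and 182 CPM in fed mice (log2 fold change 0.10 ± 0.10, adjusted p = 0.512). The groups overlapped throughout, and the count sums both alleles, so that it does not check the genotype. In the fasted state Pik3r1 had fallen by 0.52 on the log2 scale against fed mice, and by the rule below it was among the genes that returned. It was, however, called higher after correction for GC content and length (0.28, adjusted p = 0.0348). The same held against fed mice ALC_MT_866, ALC_MT_868 and ALC_MT_869 alone (0.31, adjusted p = 0.0382).

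Some libraries stood apart within their own group. On the first principal component, which held 24.4% of the variance, fed mice ALC_MT_857, ALC_MT_858 and ALC_MT_859, called the first fed set here, scored 39.2 to 44.3, and fed mice ALC_MT_866, ALC_MT_868 and ALC_MT_869, the second fed set, scored 17.02 to 18.8. On the second component, with 15.4%, refed mouse RF6_MT_898 scored -7.97 and the other refed mice scored 9.95 to 37.4. Refed mice also carried numbers of separate series, RF6_MT_810, RF6_MT_814 and RF6_MT_817 in the first refed set and RF6_MT_897, RF6_MT_898 and RF6_MT_899 in the second, and no number series held both fed and refed WT/Y657* mice, so that feeding state and number series cannot be told apart. Each count below was therefore also taken against either fed set and with either refed set. The fed sets were chosen after seeing the data.

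Defining hepatocyte markers were at full level in both groups: the 7 tested markers summed to 67790 to 87050 CPM in refed and 53650 to 89000 CPM in fed mice, and none was called. Over all 13945 genes tested 13% rose and 13.1% fell, and the marker counts are read against these shares. Among markers of other cells, 6 of 12 stellate cell genes fell (sum 436.3 to 586.1 CPM refed, 569.2 to 807.5 CPM fed), including Col1a1 (-1.76 ± 0.40) and Col3a1 (-1.45 ± 0.26). Of 11 endothelial markers 4 fell, and their summed level did not overlap (552.5 to 606.2 CPM refed, 622.7 to 774.4 CPM fed), although only 2 fell against the first fed set. Of the other markers, 1 of 12 macrophage genes rose and 1 of 7 cholangiocyte, 1 of 8 lymphocyte and 1 of 5 erythroid genes fell, as did the 1 pancreas gene tested (Cela1, -1.03), while neither of 2 neutrophil genes nor the 1 adipose gene tested was called. Against the second fed set 4 macrophage genes fell and none rose. In bulk liver, fewer cells of a type and less RNA per cell cannot be told apart.

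Refeeding for 6 h left a large part of the transcriptome away from the fed level. Of the 13945 genes tested 26.1% differed between refed and fed WT/Y657* mice: 1806 were higher (13%) and 1827 were lower (13.1%). Scaling by library size alone turned this split to 2217 higher and 1387 lower. Most changes were small. The median size over called genes was 0.442 on the log2 scale, and 445 genes moved by at least 1, of which 160 rose and 285 fell. Every refed mouse lay above every fed mouse for 692 genes (4.96%) and below for 579 (4.15%).

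The fast itself had changed 4591 genes in WT/Y657* liver (32.9%), 2119 upwards and 2472 downwards, by the same test and against the same 6 fed mice. At 6 h of refeeding 2013 of these (43.8%) had returned, which here means that they were not called against fed mice and that the 95% interval of the fold change lay within 1.5-fold of no change. A further 1598 genes (34.8%) were not recovered, being still called in the direction of the fast, 760 of them high and 838 low. In 201 (4.38%) the level had overshot, that is, was called on the other side of the fed level, 132 above it and 69 below. The other 779 (17%) were undetermined, with an interval too wide to class. Because the fasting and refeeding contrasts share the 6 fed mice, these counts describe what the rule finds and carry no test. Genes that the fast changed in wild-type mice were chosen without any mouse of the refeeding contrast. Of those, 1122 were not recovered, 519 overshot, 2056 had returned and 767 were undetermined.

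**Figure D1:**
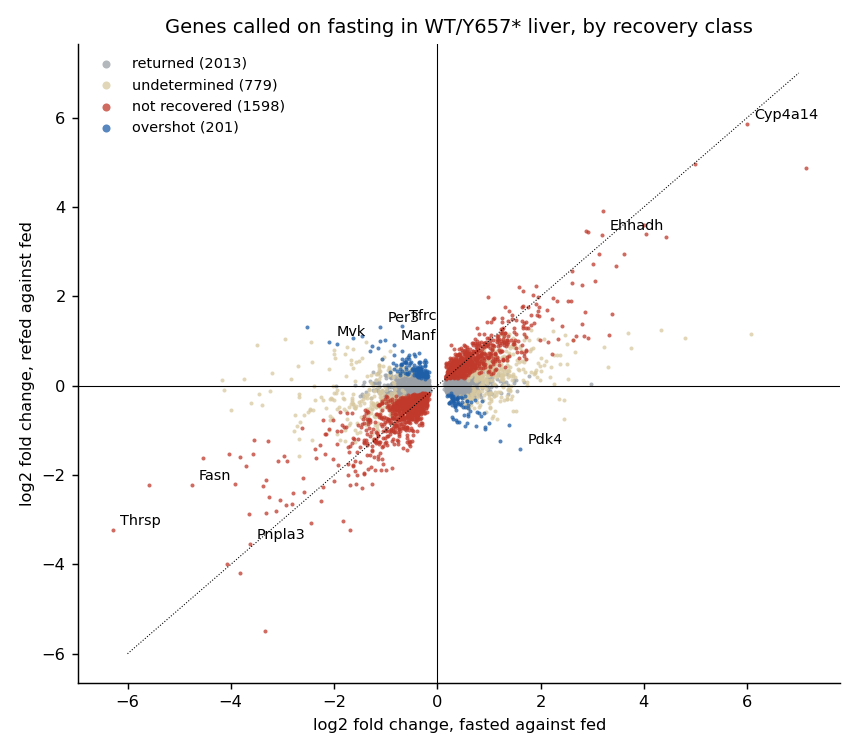
Log2 fold change of refed against fed (vertical axis) plotted against that of fasted against fed (horizontal axis) for genes called on fasting in WT/Y657* liver, coloured by recovery class, with a dotted line where the axes are equal. Returned genes (2013) form the band about 0, not recovered genes (1598) lie on the side of the fast and overshot genes (201) on the opposite side.

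Most of the not recovered genes were not distinguished from the fasted level. Of the 1598, 1266 did not differ from the fasted mice by the test, 245 had come part of the way back and 87 had moved further from the fed level than the fast had taken them. In addition 1834 genes differed between refed and fed mice though they were not called on fasting, 914 of them higher and 920 lower. Within the gene lists described next, counts are read against the 13% of genes higher and 13.1% lower over the whole table and against its median log2 fold change of -0.0016.

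Lipogenic genes were still far below the fed level 6 h after food was returned. Of 22 tested members of the lipogenesis list 16 fell and none rose, with a median log2 fold change of -1.39, and in 13 of them every refed mouse lay below every fed mouse (4.15% of all genes). The fast had called 18 of these 22 genes, all downwards, and 14 of the 18 were not recovered. Between 14 and 16 fell with either set of 3 refed or 3 fed mice, and 1 rose against the second fed set. Srebf1, which encodes the lipogenic transcription factor SREBP1, counted 152, 188 and 273 CPM in refed and 379, 622 and 729 CPM in fed mice (log2 fold change -1.60 ± 0.19, adjusted p = 1.87e-07). The highest refed mouse was below the lowest fed mouse, yet Srebf1 stood 2.21 higher on the log2 scale than in fasted mice (adjusted p = 2.69e-10). Its reads may include those of overlapping Rai1 and 4930412M03Rik. Fasn, fatty acid synthase, counted 220.4, 409 and 975 CPM in refed and 1034, 1919 and 3843 CPM in fed mice (log2 fold change -2.22 ± 0.37, adjusted p = 3.4e-05), again without overlap and again above the fasted level, by 2.53 (adjusted p = 3.83e-06).

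The enzymes around Fasn differed in how far they had come. Acly, which makes cytosolic acetyl-CoA from citrate, counted 200.4, 239.6 and 377 CPM in refed and 615, 760.2 and 1089 CPM in fed mice (log2 fold change -1.58 ± 0.24, adjusted p = 8.14e-06), and Acaca, the cytosolic acetyl-CoA carboxylase, counted 98.3, 112 and 155 CPM in refed and 219, 312 and 531 CPM in fed mice (log2 fold change -1.53 ± 0.19, adjusted p = 2.38e-07). Neither overlapped between groups. Acacb, the mitochondrial acetyl-CoA carboxylase whose product restrains fatty acid uptake by mitochondria, counted 28.6, 45.0 and 69.0 CPM in refed and 165, 189.9 and 344 CPM in fed mice (log2 fold change -2.20 ± 0.25, adjusted p = 1.08e-07), and it was lower still than in fasted mice, by -0.64 (adjusted p = 0.0448). Scd1, the stearoyl-CoA desaturase, was not called on fasting (log2 fold change -0.97, adjusted p = 0.133) but counted 412, 1275 and 2952 CPM in refed and 5078, 12920 and 16350 CPM in fed mice (log2 fold change -3.06 ± 0.52, adjusted p = 5.76e-05). Scd1 therefore stood -2.10 on the log2 scale below even the fasted mice (adjusted p = 0.00179). Thrsp, a cofactor of fatty acid synthesis, at 24.1, 82.4 and 163 CPM in refed and 186, 892 and 1399 CPM in fed mice (log2 fold change -3.24 ± 0.51, adjusted p = 1.82e-05), and Pnpla3, a lipid droplet protein, at 0.193, 0.527 and 1.41 CPM in refed and 1.70, 7.50 and 15.1 CPM in fed mice (log2 fold change -3.55 ± 0.61, adjusted p = 5.07e-05), had the 2 largest falls of the list, without overlap. The size of these falls depended on which fed mice were used: Fasn differed by -2.74 against the first fed set and by -1.42 against the second, Acaca by -1.01 against the second, and Pnpla3 by -2.12 and -4.25.

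Further lipid genes fell as well. Elongation and desaturation enzymes Elovl6 (-1.69 ± 0.31) and Fads1 (-0.73 ± 0.14) and the glycerolipid enzymes Gpam (-0.74 ± 0.15) and Agpat2 (-0.49 ± 0.08) fell, as did Me1, the malic enzyme that supplies NADPH (-1.45 ± 0.25). Dgat2, the last step of triglyceride synthesis, had returned (0.17 ± 0.10, adjusted p = 0.201). Mlxipl, which encodes ChREBP, counted 81.6, 105 and 147 CPM in refed and 124, 155 and 199.9 CPM in fed mice (log2 fold change -0.50 ± 0.18, adjusted p = 0.0386) with overlapping groups, and its call was lost in fits without 1 of RF6_MT_810, RF6_MT_814, RF6_MT_817, RF6_MT_898, ALC_MT_857, ALC_MT_859 or ALC_MT_869 (adjusted p up to 0.0996). Agpat6 (Gpat4), a glycerol-3-phosphate acyltransferase, belonged to the few that the fast had raised and refeeding took below the fed level (132, 143 and 150.3 CPM in refed and 190.3, 251 and 309 CPM in fed mice, log2 fold change -0.82 ± 0.10, adjusted p = 1.7e-07).

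**Figure D2:**
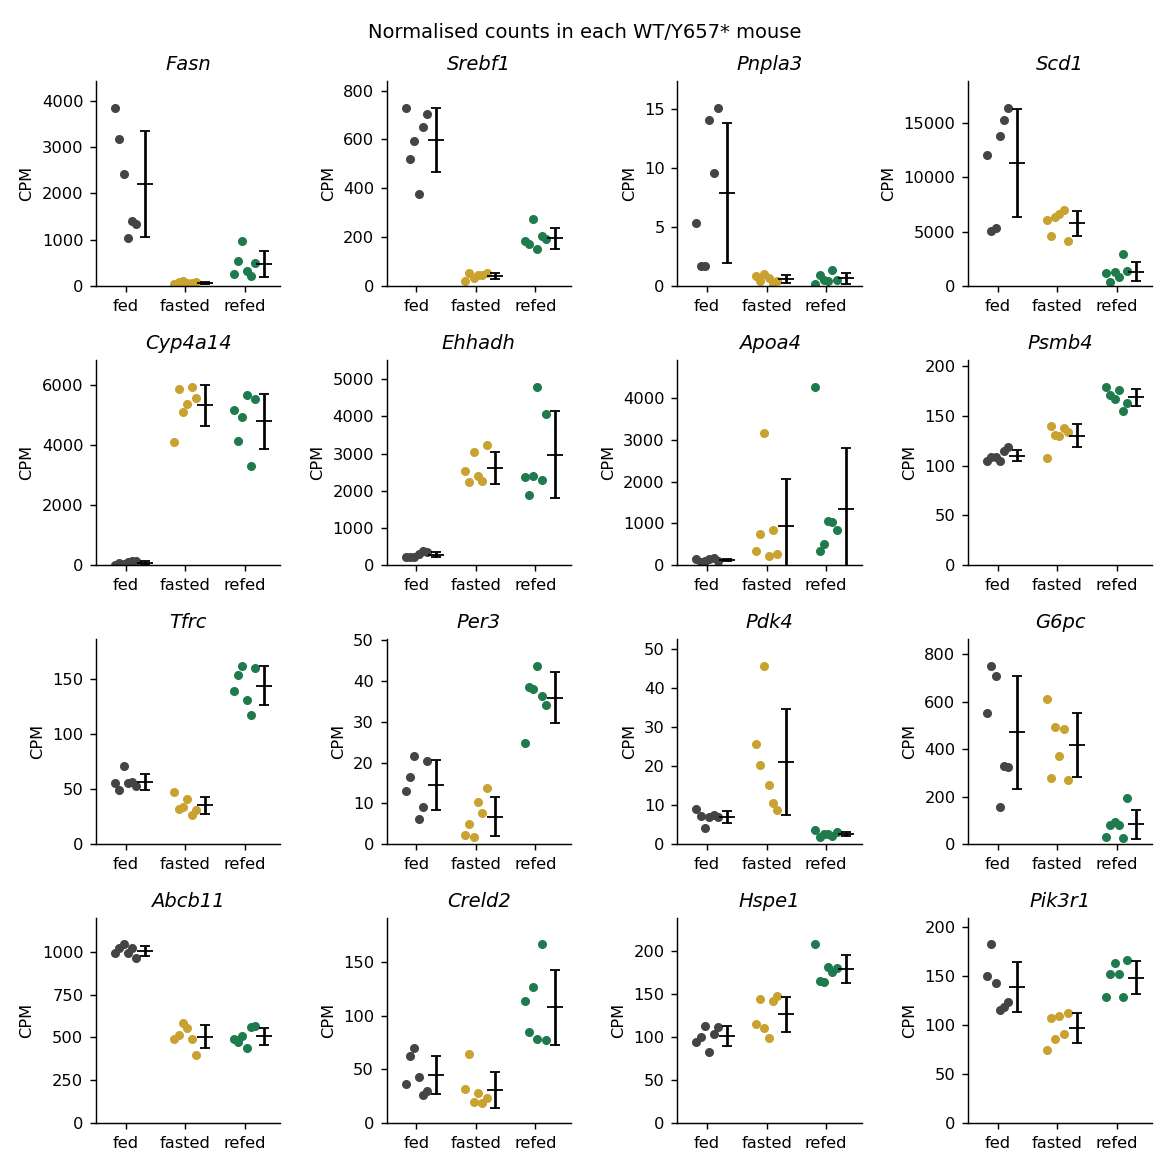
CPM (linear axis from 0) of 16 named genes in each mouse of the fed, fasted and refed WT/Y657* groups, points being mice in number order and bars the mean ± SD, cut at 0 for Apoa4. Fasn and Srebf1 in refed mice sit between the fasted and fed mice, Cyp4a14 and Ehhadh stay with the fasted mice, and Tfrc and Per3 rise above the fed mice.

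PPARalpha targets formed the mirror image, staying high. Of 39 tested genes of fatty acid oxidation and ketogenesis 31 rose and none fell (median log2 fold change 0.79), and in 23 of them every refed mouse lay above every fed mouse (4.96% of all genes). The fast had raised 36 of them, of which 30 were not recovered and 4 had returned. Between 29 and 32 rose with either set of 3 fed or 3 refed mice. Cyp4a14, a microsomal fatty acid omega-hydroxylase, counted 3300, 5053 and 5655 CPM in refed and 17.4, 93.1 and 137 CPM in fed mice (log2 fold change 5.85 ± 0.51, adjusted p = 9.96e-10). Ehhadh, the peroxisomal bifunctional enzyme, counted 1879, 2388 and 4795 CPM in refed and 224, 268 and 374 CPM in fed mice (log2 fold change 3.37 ± 0.26, adjusted p = 4.96e-11). The lowest refed mouse exceeded the highest fed mouse in both, and the fast had raised them by 6.01 and 3.19 on the log2 scale. Reads of Cyp4a14, Cyp4a10 (4.97 ± 0.45) and Cyp4a31 (3.40 ± 0.31) may be split among near-identical copies, so that their separate values are uncertain.

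The mitochondrial steps were raised by less but as regularly. Acadm, Acadl and Acadvl, the medium, long and very long chain acyl-CoA dehydrogenases, rose by 1.17 ± 0.12, 0.92 ± 0.09 and 0.53 ± 0.08. Hadha and Hadhb, the subunits of the trifunctional protein, rose by 0.79 ± 0.08 and 1.01 ± 0.09, and Ech1, a dienoyl-CoA isomerase and the most significant member, counted 365, 463 and 546 CPM in refed and 167, 197 and 235 CPM in fed mice (log2 fold change 1.247 ± 0.10, adjusted p = 3.45e-11). Cpt1a, the entry step of mitochondrial oxidation, counted 398, 479.5 and 546 CPM in refed and 264, 315 and 375 CPM in fed mice (log2 fold change 0.57 ± 0.11, adjusted p = 8.98e-05), with no overlap, and had come part of the way back from a fasting change of 1.34. Slc22a5, the carnitine importer, had come further, to 1.03 ± 0.15 from 2.63. Fgf21, a hepatic hormone of fasting, varied among refed mice, from 1.31 to 58.2 CPM with a median of 3.31, against 0.613 to 2.02 CPM in fed mice (log2 fold change 3.61 ± 0.80, adjusted p = 0.00106), and the groups overlapped.

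Not every target stayed high. Angptl4, an inhibitor of lipoprotein lipase (0.04 ± 0.36), and Plin2, a coat protein of lipid droplets (-0.16 ± 0.11), were not called, and Ppara itself stood at 0.24 ± 0.10 (adjusted p = 0.0793), having returned. Outside the list, Cpt1b, the muscle form of the carnitine palmitoyltransferase, rose from very low levels (4.65, 7.85 and 16.4 CPM in refed and 0.538, 1.23 and 1.72 CPM in fed mice, log2 fold change 2.94 ± 0.47, adjusted p = 2.04e-05), and its reads may include those of overlapping Chkb. Apoa4, an apolipoprotein of triglyceride-rich particles, counted 342, 937 and 4273 CPM in refed and 75.9, 124 and 165 CPM in fed mice (log2 fold change 3.44 ± 0.59, adjusted p = 5.33e-05). Its highest value came from RF6_MT_810, with the others at 341.5 to 1052 CPM and still above every fed mouse, and Gm10680, which overlaps it, moved with it (3.47 ± 0.58).

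**Figure D3:**
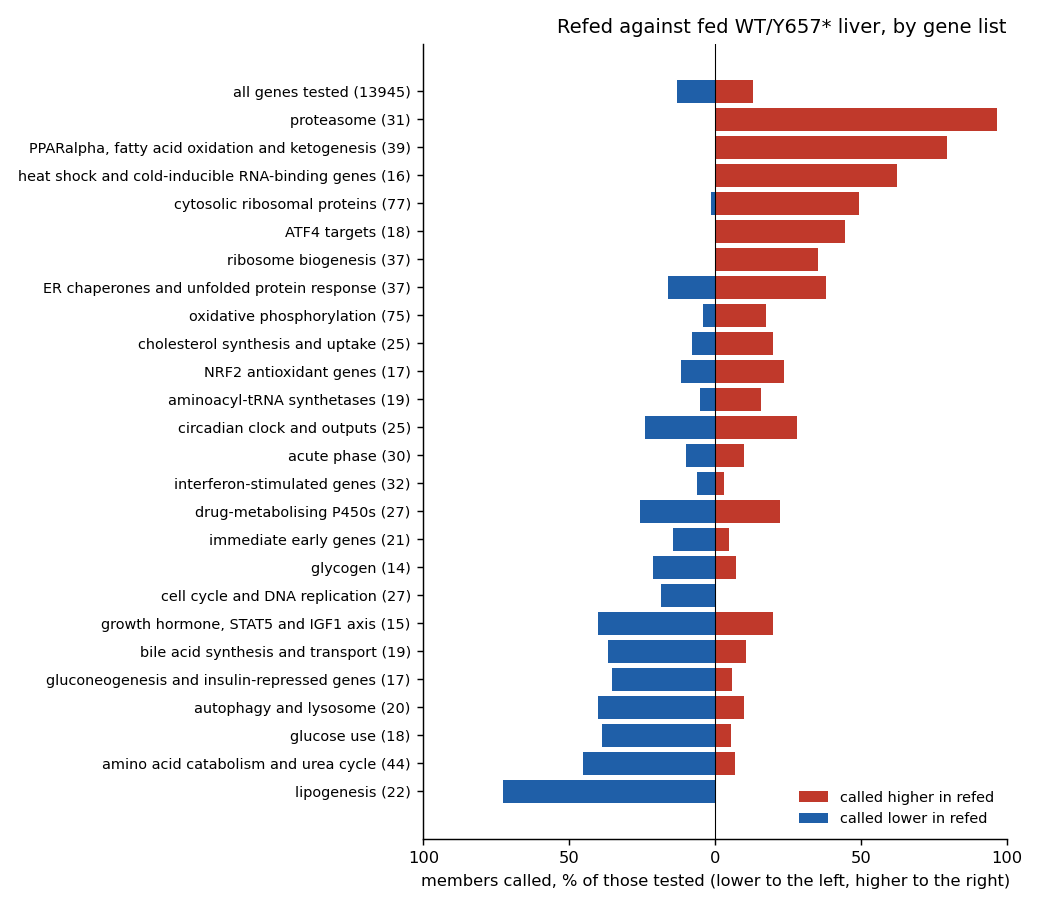
Share of tested members (%) called higher and lower in refed against fed WT/Y657* liver for each of the 25 gene lists and for all genes tested, with the number tested in brackets. Lipogenesis (0 higher, 16 lower), fatty acid oxidation (31 higher, 0 lower) and the proteasome (30 higher, 0 lower) are the most one-sided.

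Genes of glucose use were also still low. Of 18 tested members 7 fell and 1 rose, and all 7 that fell were not recovered, with a median log2 fold change of -0.29 for the list, and 9 fell against the first fed set. Pklr, liver pyruvate kinase and a target of ChREBP, counted 33.2, 68.8 and 105 CPM in refed and 96.4, 283 and 514 CPM in fed mice (log2 fold change -2.10 ± 0.33, adjusted p = 2.05e-05), the highest refed mouse lying above the lowest fed mouse, its reads may include those of overlapping Hcn3, and it differed by -1.39 against the second fed set. Khk, which phosphorylates fructose (-1.06 ± 0.18), and the pentose phosphate enzymes Pgd (-0.89 ± 0.13), Tkt (-0.65 ± 0.11) and Taldo1 (-0.38 ± 0.07) fell as well. Gckr, a regulatory protein of hepatic glucose uptake, counted 87.8, 103 and 110.5 CPM in refed and 127, 147 and 172 CPM in fed mice without overlap (log2 fold change -0.56 ± 0.08, adjusted p = 1.59e-06).

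Of 14 tested members of the glycogen list 3 fell and 1 rose, beside 13.1% lower and 13% higher over all genes. The median log2 fold change of the list was -0.01. Pygl, liver glycogen phosphorylase, counted 269.5, 324 and 409 CPM in refed and 543, 838 and 934 CPM in fed mice (log2 fold change -1.29 ± 0.12, adjusted p = 5.39e-10), every refed mouse being below every fed mouse. Ugp2, which makes UDP-glucose, fell by 0.59 on the log2 scale. Against the second fed set Ugp2 lost its call (-0.39, adjusted p = 0.0578), and 1 member of the list fell and none rose. Gys2, liver glycogen synthase, was not called (0.09 ± 0.17).

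Some genes that insulin represses were below the fed level after refeeding. Of 17 tested members 6 fell and 1 rose, with 8 and none against the first fed set. The fast had called 8 of the 17, of which 3 were not recovered, 3 were undetermined, 1 had returned and 1 had overshot. G6pc, glucose-6-phosphatase, counted 23.5, 78.7 and 192 CPM in refed and 158, 439.7 and 753 CPM in fed mice (log2 fold change -2.51 ± 0.49, adjusted p = 0.000266). The fast had not changed it by the test (-0.17, adjusted p = 0.816), and the fed mice were divided, 551 to 753 CPM in the first fed set and 158 to 329 CPM in the second. Its log2 fold change was -3.02 against the former and -1.72 against the latter. Pdk4, which blocks pyruvate oxidation in fasting, rose on fasting by 1.61 and then counted 1.86, 2.50 and 3.60 CPM in refed and 4.04, 7.10 and 9.08 CPM in fed mice (log2 fold change -1.42 ± 0.34, adjusted p = 0.0024), below every fed mouse, so that it overshot. Pck1, phosphoenolpyruvate carboxykinase, counted 1036, 2499 and 3349 CPM in refed and 1524, 2060 and 3002 CPM in fed mice (log2 fold change 0.15 ± 0.22, adjusted p = 0.669) after a fasting rise of 1.24, and Igfbp1 counted 1.67, 3.90 and 51.9 CPM in refed and 7.36, 21.7 and 46.8 CPM in fed mice (log2 fold change -0.74 ± 0.70, adjusted p = 0.473) after one of 2.45. Both overlapped and stayed undetermined. Fbp1, fructose-1,6-bisphosphatase (-0.69 ± 0.12), and Foxo3 (-0.46 ± 0.09) were low, as they had been on fasting (-0.54 and -0.58). The insulin receptor gene Insr fell (-0.48 ± 0.09) with no fasting call, by -0.66 against the first fed set and by -0.27 against the second. Correction for GC content and length made Foxo3 -0.29 and Insr -0.22, both still called. Rictor, a subunit of the kinase complex mTORC2 that acts on AKT, was not called on fasting but counted 24.8, 29.6 and 32.6 CPM in refed and 34.02, 39.1 and 47.8 CPM in fed mice (log2 fold change -0.44 ± 0.09, adjusted p = 0.000531), without overlap, although its call was lost after correction for GC content and length (-0.21, adjusted p = 0.0771).

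Sterol synthesis differed from fatty acid synthesis. The fast had lowered 22 of 25 tested genes of cholesterol synthesis and uptake, and after refeeding only 2 were still called low, 4 had overshot, 1 had returned and 15 were undetermined. In all 5 rose and 2 fell (median log2 fold change 0.31). The sterol enzymes Sc4mol (Msmo1; 1.30 ± 0.42), Fdft1 (0.88 ± 0.28) and Lss (0.92 ± 0.33) overshot with overlapping groups. Sc5d, a desaturase (-0.62 ± 0.18), and Ebp, an isomerase (-0.27 ± 0.08), stayed low. Insig1 and Srebf2 were at -0.18 ± 0.28 and 0.31 ± 0.15, not called. Srebf2 was called after correction for GC content and length (0.40, adjusted p = 0.0469) and against the second fed set (0.59, adjusted p = 0.0123).

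The sterol genes depended on which refed mice were counted. With the first refed set 12 members rose and none fell, and with the second none rose and 8 fell. Against the first fed set 1 rose and none fell, and against the second 8 rose and 1 fell. Sc5d lost its call against either fed set and with the first refed set, and Ebp against the first fed set and with the first refed set (adjusted p up to 0.364 and 0.307). Mvk, mevalonate kinase, counted 28.6, 75.2 and 66.2 CPM in RF6_MT_810, RF6_MT_814 and RF6_MT_817 and 22, 15.7 and 23.3 CPM in RF6_MT_897, RF6_MT_898 and RF6_MT_899, against 11.2, 19.4 and 27.2 CPM in fed mice (log2 fold change 0.98 ± 0.33, adjusted p = 0.0277). The highest, RF6_MT_814 and RF6_MT_817, lay far above the fed range, and the call for Mvk was lost without either of them or without ALC_MT_866, ALC_MT_868 or ALC_MT_869 (adjusted p up to 0.124). Without RF6_MT_898 the list had 10 higher members, without RF6_MT_814 or RF6_MT_817 it had 1, and without ALC_MT_866, ALC_MT_868 or ALC_MT_869 it had 2 or 3. In Nsdhl, another sterol enzyme, refed mice spanned 10.5 to 97.9 CPM and covered the fed range of 24.3 to 77.5 CPM (log2 fold change -0.26 ± 0.40, adjusted p = 0.687).

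Against all 6 fed mice, chaperones of the endoplasmic reticulum (ER) had passed the fed level, while 4 genes of protein entry into the ER were still below it. Of 37 tested genes of the ER list the fast had lowered 28, of which 11 had returned, 9 had overshot, 6 were not recovered and 2 were undetermined. Against fed mice 14 rose and 6 fell (median log2 fold change 0.10). Hspa5, which encodes BiP, the main Hsp70 chaperone of the ER, counted 1336, 1643 and 2278 CPM in refed and 865.9, 1091 and 1488 CPM in fed mice (log2 fold change 0.60 ± 0.20, adjusted p = 0.0253). Hsp90b1, the ER Hsp90, counted 1214, 1488 and 1679 CPM in refed and 760.3, 974 and 1237 CPM in fed mice (log2 fold change 0.59 ± 0.15, adjusted p = 0.00284). In both the lowest refed mice lay inside the fed range. Calr, the lectin chaperone calreticulin, counted 1109, 1310 and 1455 CPM in refed and 794, 861 and 1097 CPM in fed mice without overlap (log2 fold change 0.50 ± 0.13, adjusted p = 0.00358). Creld2, an ER-resident protein induced by ER stress, was not called on fasting (-0.55) and counted 77.1, 99.0 and 166 CPM in refed and 26.1, 39.5 and 70.1 CPM in fed mice, every refed mouse being above every fed mouse (log2 fold change 1.28 ± 0.28, adjusted p = 0.000918). Manf, a secreted protein of the stressed ER, counted 139.8, 178 and 222 CPM in refed and 73.9, 92.8 and 131 CPM in fed mice (log2 fold change 0.91 ± 0.21, adjusted p = 0.00168), also without overlap, and its reads may include those of overlapping Vprbp and Rbm15b. Derl3, of ER-associated degradation, rose from a low level (3.07, 8.53 and 20.1 CPM in refed and 0.693, 1.81 and 3.14 CPM in fed mice, log2 fold change 2.53 ± 0.64, adjusted p = 0.00364).

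Disulfide isomerases Pdia3 (0.48 ± 0.13) and Pdia4 (0.53 ± 0.14) and the co-chaperones Dnajb11 (0.54 ± 0.13), Sdf2l1 (1.10 ± 0.29) and Hyou1 (0.61 ± 0.19) overshot too. Of the members still low, the signal peptidase subunits Spcs2 (-0.33 ± 0.08) and Spcs3 (-0.24 ± 0.06) and the translocon genes Tram1 (-0.36 ± 0.08) and Sec61b (-0.25 ± 0.09) belong to the entry of proteins into the ER, and Edem1 (-0.43 ± 0.08) and Ern1 (-0.48 ± 0.16) to degradation and stress sensing. Xbp1, the transcription factor spliced by the Ern1 product, had returned (211, 238 and 285 CPM in refed and 197, 235 and 288 CPM in fed mice, log2 fold change 0.05 ± 0.11, adjusted p = 0.785). The calls depended on the fed mice. Against the first fed set 1 member rose and 11 fell, and against the second 14 rose and 2 fell. Creld2 differed by 0.94 (adjusted p = 0.0428) and 1.72 in these fits, and Manf by 0.69 (adjusted p = 0.061) and 1.17. Of the low members, Tram1 differed by -0.47 and -0.25, and lost its call in the latter fit (adjusted p = 0.0549). Edem1 kept its call in both (-0.45 and -0.41).

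Promoter sequence was not itself used to choose the list. The list was, however, written from known roles in the ER stress response, so that the share below is not independent of that choice. The ER stress element, a CCAAT box and a CCACG box separated by any 9 bases, searched on both strands, to which NF-Y and the factors ATF6 and XBP1 are known to bind, occurred within the 250 bases before the start of 37 of 32851 RefSeq promoters (0.113%). It was found in 9 of the 26 ER list members that had a promoter sequence (34.6%). The latter share counts genes with the element in any window, and the former counts windows. These 9 are shown because they include Derl3 and Creld2, the members with the 2 largest rises. Sequences are from RefSeq on GRCm38.p6, written 5′ to 3′ on the strand of the gene, with the element in capitals (as its reverse complement in Calr, Creld2 and Derl3).
Hspa5: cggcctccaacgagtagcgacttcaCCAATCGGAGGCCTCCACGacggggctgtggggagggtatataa
Hsp90b1: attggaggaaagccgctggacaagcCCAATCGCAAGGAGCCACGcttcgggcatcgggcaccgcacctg
Calr: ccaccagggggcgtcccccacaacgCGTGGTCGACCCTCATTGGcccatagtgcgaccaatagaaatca
Creld2: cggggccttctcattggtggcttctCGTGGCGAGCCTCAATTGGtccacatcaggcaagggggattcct
Derl3: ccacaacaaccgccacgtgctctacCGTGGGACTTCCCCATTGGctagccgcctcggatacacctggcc
Dnajc3: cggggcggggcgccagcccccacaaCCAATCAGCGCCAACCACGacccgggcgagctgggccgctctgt
Syvn1: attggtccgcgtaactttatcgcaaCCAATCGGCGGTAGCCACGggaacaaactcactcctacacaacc
Pdia6: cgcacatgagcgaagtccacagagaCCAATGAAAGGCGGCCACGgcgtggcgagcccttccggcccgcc
Canx: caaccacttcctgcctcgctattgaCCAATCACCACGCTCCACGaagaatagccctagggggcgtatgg

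These windows lie at chr2:34772000-34772068 (plus strand, 47 to 65 bases before the start) for Hspa5, chr10:86705613-86705681 (minus strand, 194 to 212 bases before the start) for Hsp90b1, chr8:84847050-84847118 (minus strand, 144 to 162 bases before the start) for Calr, chr15:88819495-88819563 (plus strand, 108 to 126 bases before the start) for Creld2, chr10:75893217-75893285 (plus strand, 138 to 156 bases before the start) for Derl3, chr14:118937802-118937870 (plus strand, 87 to 105 bases before the start) for Dnajc3, chr19:6046507-6046575 (plus strand, 26 to 44 bases before the start) for Syvn1, chr12:17266466-17266534 (plus strand, 80 to 98 bases before the start) for Pdia6 and chr11:50325775-50325843 (minus strand, 127 to 145 bases before the start) for Canx, all upstream of the first exon. Of the 9 members with the element 7 rose and none fell, with a median log2 fold change of 0.59. Pdia6 (0.33 ± 0.14) and Canx (-0.05 ± 0.08) carried it and were not called. Of the 17 members with a promoter sequence and no element 5 rose and 4 fell, with a median of 0.03. In wild-type mice the medians were -0.27 and -0.35. These are counts and medians with no test, and a match of letters is no evidence that a factor was bound. The split by element was taken against all 6 fed mice only. Against the first fed set no more than 1 member of the whole ER list rose.

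**Figure D4:**
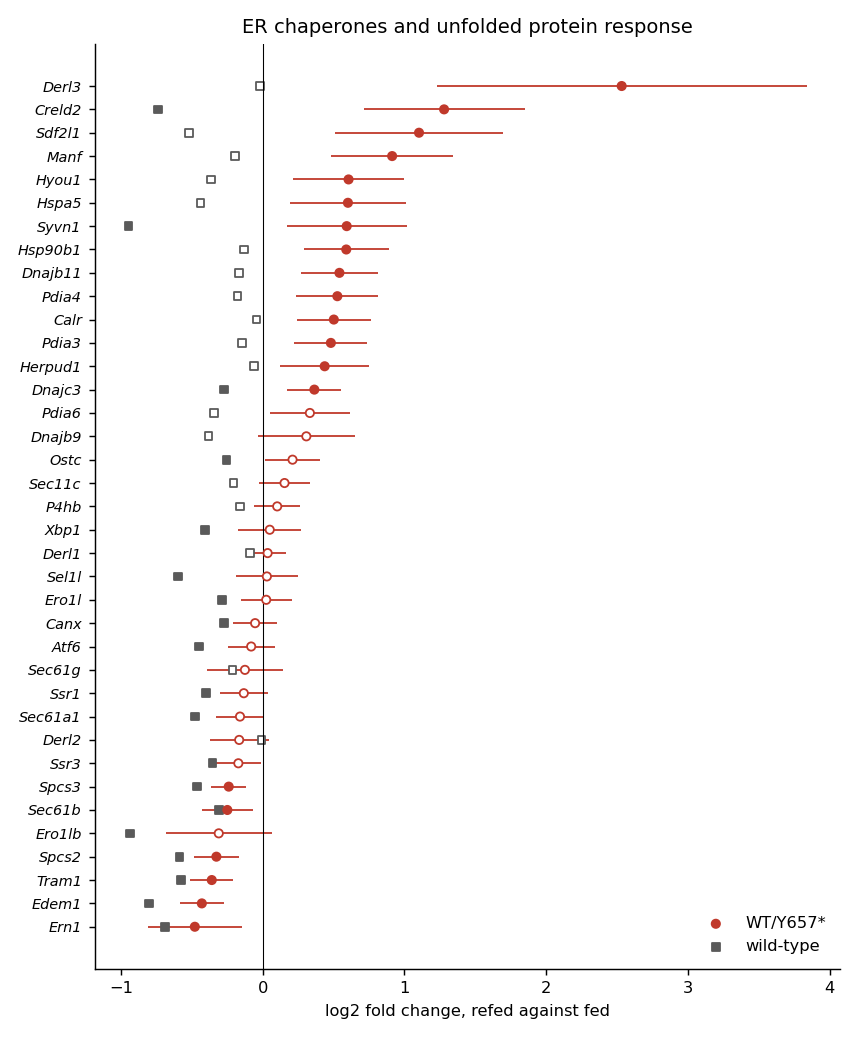
Log2 fold change of refed against fed for each tested gene of the ER list in WT/Y657* mice (red circles, 95% interval) and wild-type mice (grey squares), filled where called. In WT/Y657* mice 14 genes are filled to the right of 0 and 6 to the left, and in wild-type mice 0 and 19.

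Of 16 tested heat shock and cold-inducible genes, which include cytosolic and mitochondrial chaperones and RNA-binding proteins, 10 rose and none fell (median log2 fold change 0.43), and between 7 and 12 rose with either set of 3 fed or 3 refed mice, 1 falling against the first fed set. Hspb1, a small heat shock protein, counted 22.8, 24.01 and 31.2 CPM in refed and 7.66, 8.27 and 11.2 CPM in fed mice (log2 fold change 1.5 ± 0.20, adjusted p = 6.42e-07). Hsp90aa1, the inducible cytosolic Hsp90, counted 234, 325 and 357 CPM in refed and 102, 117 and 219 CPM in fed mice (log2 fold change 1.13 ± 0.17, adjusted p = 1.03e-05). Hspe1, the mitochondrial chaperonin subunit Hsp10, counted 164, 178 and 208 CPM in refed and 82.3, 102 and 113 CPM in fed mice (log2 fold change 0.83 ± 0.10, adjusted p = 6.96e-08). None of these 3 overlapped between groups, and only Hspe1 of them had been called on fasting (0.32). Rbm3, an RNA-binding protein induced by mild cold, rose as on fasting (0.90 ± 0.13 and 0.94). Hspa4l was called (0.34 ± 0.13, adjusted p = 0.0405), but lost its call without 1 of RF6_MT_814, RF6_MT_898, RF6_MT_899, ALC_MT_866, ALC_MT_868 or ALC_MT_869 (adjusted p up to 0.111).

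The heat shock element, searched here on both strands as GAA, TTC and GAA separated by any 2 bases, occurred in 0.466% of all promoters and in 2 of the 11 members with a promoter sequence, Hspe1 and Hspd1, which are transcribed away from each other and whose matches overlap in part. It is given for Hspe1, the gene of the list with the smallest p, with the element in capitals as its reverse complement.
Hspe1: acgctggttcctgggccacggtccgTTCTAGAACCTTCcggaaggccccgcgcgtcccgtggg
The window is chr1:55088034-55088096 (plus strand, 77 to 89 bases before the start). Hspd1, Hsp60, rose too (0.39 ± 0.08), and because the annotated loci overlap, reads where they do could be counted for either.

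The ATF4 pathway, which responds to amino acid shortage and other stress, rose in part. Of 18 tested targets 8 rose and none fell. Ddit3, which encodes the stress factor CHOP, counted 7.22, 11.3 and 30.2 CPM in refed and 4.12, 5.31 and 6.37 CPM in fed mice without overlap (log2 fold change 1.67 ± 0.25, adjusted p = 4.67e-06), and Atf5 counted 158, 209 and 555 CPM in refed and 111, 142 and 156 CPM in fed mice, also without overlap (log2 fold change 1.07 ± 0.22, adjusted p = 0.000506). In Ddit3 the 2 highest were RF6_MT_810 and RF6_MT_898, at 29.7 and 30.2 CPM against 7.22 to 12.6 CPM in the other 4, and the same mice were highest for Atf5 (554.7 and 415 CPM) and for the amino acid transporter gene Slc3a2 (53.6 and 54.6 CPM). Without RF6_MT_810 or without RF6_MT_898 4 members rose in place of 8, and against the first and the second fed set 3 and 4. Asns, asparagine synthetase (0.51 ± 0.74), and Chac1 (0.02 ± 0.46) were not called. Reads of Ddit3 may include those of overlapping Mars.

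The proteasome rose as a block. Of 31 tested subunits 30 rose and none fell (median log2 fold change 0.42), and in 25 every refed mouse lay above every fed mouse (4.96% of all genes). The exception was Psmd11 (0.08 ± 0.07). Psmb4, a subunit of the 20S core, counted 155, 169 and 179 CPM in refed and 105, 108 and 118 CPM in fed mice (log2 fold change 0.62 ± 0.06, adjusted p = 6.66e-10), Psma7, another, counted 108, 117 and 131 CPM in refed and 71.0, 75.2 and 84.8 CPM in fed mice (log2 fold change 0.62 ± 0.06, adjusted p = 2.31e-09), and Psmc6, an ATPase of the regulatory particle, counted 108, 121 and 139.6 CPM in refed and 74.3, 79.5 and 86.6 CPM in fed mice (log2 fold change 0.60 ± 0.07, adjusted p = 1.42e-08). The fast had raised 15 of the subunits, and all 15 were not recovered. Psmd14, the deubiquitinase of the lid, shows the other kind, being level on fasting (0.03) and up on refeeding (0.54 ± 0.07). Between 28 and 30 subunits rose in every subset of fed or refed mice.

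Translation genes rose less evenly. Of 77 tested cytosolic ribosomal protein genes 38 rose and 1 fell (median log2 fold change 0.20), but 25 rose without RF6_MT_810, 10 with the second refed set, 12 against the second fed set and 13 after correction for GC content and length. Many have processed copies elsewhere in the genome, and their separate counts are uncertain. Of 37 ribosome biogenesis genes 13 rose and none fell. Nob1, an endonuclease of small subunit maturation, counted 6.14, 8.31 and 9.50 CPM in refed and 3.41, 5.16 and 5.65 CPM in fed mice (log2 fold change 0.74 ± 0.14, adjusted p = 0.000118) and Wdr74, of large subunit assembly, counted 18.7, 21.1 and 25.1 CPM in refed and 13.1, 14.7 and 18.1 CPM in fed mice without overlap (log2 fold change 0.52 ± 0.10, adjusted p = 0.000153). Only 8 rose against either set of fed mice, 2 falling against the first, and 4 with the second refed set. Myc, which drives this programme, was not called (2.18, 2.35 and 3.73 CPM in refed and 2.51, 3.66 and 9.39 CPM in fed mice, log2 fold change -0.91 ± 0.47, adjusted p = 0.152). Srm, spermidine synthase, overshot (23.96, 29.2 and 35.6 CPM in refed and 12.9, 15.4 and 23.4 CPM in fed mice, log2 fold change 0.77 ± 0.12, adjusted p = 1.3e-05), its groups lying apart, though by 0.50 against the first fed set.

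Among 19 aminoacyl-tRNA synthetases 3 rose and 1 fell, beside 13% and 13.1% of all genes. These counts were 8 and 1 under scaling by library size alone and 1 and 2 against the first fed set. Tars, of threonine, counted 100, 115 and 123 CPM in refed and 189, 221 and 256 CPM in fed mice (log2 fold change -0.97 ± 0.10, adjusted p = 3.24e-09), far below every fed mouse and unlike the rest of the family, and Farsa, of phenylalanine, rose (0.48 ± 0.08). Oxidative phosphorylation genes gave no stable count. Of 75 tested 13 rose and 3 fell (median 0.09), which became 22 and 2 under scaling by library size and 6 and 6 after correction for GC content and length, and 8 and 2 or 5 and 2 against the first or the second fed set. Leaving out single mice gave 6 (without RF6_MT_810) to 21 (without ALC_MT_869) higher members, with 8 without RF6_MT_897, RF6_MT_899 or ALC_MT_866.

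Genes of the liver clock differed between the groups, in both directions. Of 25 tested members 7 rose and 6 fell. Arntl, which encodes the activator BMAL1, counted 2.36, 4.02 and 6.94 CPM in refed and 7.54, 13.4 and 22.8 CPM in fed mice (log2 fold change -1.73 ± 0.39, adjusted p = 0.00144), below every fed mouse, and its partners Clock (-0.45 ± 0.09) and Npas2 (-2.54 ± 0.61) fell too, the call for Clock being lost after correction for GC content and length (-0.21, adjusted p = 0.065). The repressor genes Per1 (1.29 ± 0.33), Per2 (1.17 ± 0.28) and Per3 rose, Per3 counting 24.9, 37.1 and 43.9 CPM in refed and 6.14, 14.8 and 21.6 CPM in fed mice without overlap (log2 fold change 1.31 ± 0.38, adjusted p = 0.0103). Gm129 (Ciart), another repressor of the clock, counted 8.29, 9.99 and 13.9 CPM in refed and 0.628, 1.81 and 4.10 CPM in fed mice (log2 fold change 2.28 ± 0.43, adjusted p = 0.000178), again apart from every fed mouse. Nr1d1, REV-ERBalpha, was not called (-0.54 ± 0.27). The fast had called 10 of the 25, 4 upwards and 6 downwards, among them Per1 (1.71), Clock (0.33) and Per3 (-1.11). Against the first fed set 3 rose in place of 7, and Per3 stood at 1.07 (adjusted p = 0.095). Food, time of day and the order of harvest cannot be told apart here, since harvest times were not given. Reads of Per3 may include those of overlapping Vamp3 and Camta1.

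The E-box CACGTG, through which BMAL1 and CLOCK act, occurred in 6.02% of all promoters and in 5 of 19 clock list members with a promoter sequence (26.3%): Ciart, Per1, Bhlhe41, Cry1 and Tef. It is printed for Ciart and Per1, the 2 of the 5 that were called, with the E-box in capitals.
Ciart: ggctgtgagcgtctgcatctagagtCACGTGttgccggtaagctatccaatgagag
Per1: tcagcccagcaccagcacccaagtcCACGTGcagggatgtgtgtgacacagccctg
These windows are chr3:95882314-95882369 (minus strand, 111 to 116 bases before the start) and chr11:69098758-69098813 (plus strand, 161 to 166 bases before the start) on GRCm38.p6. Bhlhe41 (0.66 ± 0.51), Cry1 (-0.43 ± 0.23) and Tef (0.63 ± 0.24) were not called.

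By the naming rule the largest overshoot above the fed level was that of Tfrc, the transferrin receptor, which brings iron into cells. It counted 117, 146 and 162 CPM in refed and 48.7, 55.4 and 70.4 CPM in fed mice (log2 fold change 1.35 ± 0.14, adjusted p = 1.75e-08), without overlap, after a fasting change of -0.68, and was 2.03 above the fasted mice on the log2 scale (adjusted p = 3.87e-12). Fam65b (Ripor2), an inhibitor of RHOA, counted 9.75, 12.5 and 16.5 CPM in refed and 4.84, 6.45 and 8.33 CPM in fed mice (log2 fold change 0.99 ± 0.17, adjusted p = 2.04e-05) after -1.11 on fasting. Below the fed level, Ccng2, a cyclin that FOXO factors induce, counted 5.33, 6.10 and 9.82 CPM in refed and 11.4, 13.5 and 14.6 CPM in fed mice (log2 fold change -0.96 ± 0.17, adjusted p = 5.8e-05) after 0.91. Ip6k2, an inositol hexakisphosphate kinase, counted 6.93, 7.39 and 12.3 CPM in refed and 13.1, 14.9 and 16.4 CPM in fed mice (log2 fold change -0.84 ± 0.22, adjusted p = 0.00395) after 0.996, and lost its call with the second refed set (adjusted p = 0.118). Lgalsl, a galectin-like protein, counted 8.86, 10.98 and 13.2 CPM in refed and 16.4, 19.6 and 24.1 CPM in fed mice (log2 fold change -0.80 ± 0.16, adjusted p = 0.000213). In all 5 genes the groups did not overlap, which the choice of named genes required.

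Of 44 tested genes of amino acid catabolism and the urea cycle 20 fell and 3 rose (median log2 fold change -0.24), and between 16 and 21 fell with either set of 3 fed or 3 refed mice. Kynu, kynureninase, counted 83.2, 91.6 and 118 CPM in refed and 175, 194 and 203 CPM in fed mice (log2 fold change -1.01 ± 0.10, adjusted p = 9.61e-10), Haao, of the same tryptophan pathway, counted 215, 241 and 274 CPM in refed and 421, 430.1 and 503.6 CPM in fed mice (log2 fold change -0.88 ± 0.09, adjusted p = 1.72e-09), and Otc, the urea cycle ornithine transcarbamylase, counted 222, 292 and 334 CPM in refed and 473, 538 and 563 CPM in fed mice (log2 fold change -0.90 ± 0.11, adjusted p = 1.2e-07). None overlapped. Cps1, the first step of the urea cycle (-0.89 ± 0.15), Ass1 (-0.73 ± 0.21) and Got1, the cytosolic aspartate aminotransferase (-1.74 ± 0.32), fell as well, while Mat1a, which makes S-adenosylmethionine, rose (1.01 ± 0.15). Of 19 bile acid genes 7 fell, 2 rose and 10 were not called (median -0.22). With the first refed set 4 were lower (median -0.08), and against the first fed set 6 were lower and none higher. Abcb11, the canalicular bile salt pump, counted 436, 502 and 568 CPM in refed and 962, 1008 and 1045 CPM in fed mice, less than every fed mouse (log2 fold change -0.99 ± 0.10, adjusted p = 1.05e-09), and Slc27a5, which activates bile acids for conjugation, fell (-0.57 ± 0.08). Cyp7a1, the rate-limiting enzyme of bile acid synthesis, was not called (0.78 ± 0.35).

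Several of the strongest falls lay elsewhere. Elovl3, a fatty acid elongase with a strong daily rhythm, was level on fasting and counted 17.02, 26.2 and 37.9 CPM in refed and 109.8, 248 and 364 CPM in fed mice (log2 fold change -3.22 ± 0.32, adjusted p = 9.44e-09). Rnf125, a ubiquitin ligase, likewise was not called on fasting (-0.14) and counted 21.2, 25.1 and 26.8 CPM in refed and 72.0, 108 and 142 CPM in fed mice (log2 fold change -2.11 ± 0.16, adjusted p = 3.45e-11). Selenbp2, a selenium-binding protein with a near-identical copy, counted 34.2, 91.0 and 158 CPM in refed and 194, 673 and 1272 CPM in fed mice (log2 fold change -2.86 ± 0.47, adjusted p = 3.09e-05; -1.82 against the second fed set), and Fabp5, a fatty acid-binding protein, counted 1.02, 2.70 and 4.36 CPM in refed and 8.89, 16.3 and 36.3 CPM in fed mice (log2 fold change -2.67 ± 0.34, adjusted p = 5.31e-07). In all 4 every refed mouse lay below every fed mouse. Fam198a (-2.82 ± 0.33), Gpr110 (Adgrf1; -2.66 ± 0.33), 4930452B06Rik (-2.84 ± 0.46) and 1500017E21Rik (Hectd2os; -2.58 ± 0.45) completed the 10 largest falls that the naming rule took, with Scd1, Thrsp, Pnpla3, Elovl3, Selenbp2 and Fabp5. Gm15441, a transcript antisense to Txnip, rose from near nothing (1.28, 3.03 and 10.9 CPM in refed and 0, 0.163 and 0.358 CPM in fed mice, log2 fold change 4.88 ± 0.76, adjusted p = 1.54e-05), and its reads cannot be told from those of Txnip where counting ignores strand.

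Wild-type mice were set beside these values to see where WT/Y657* mice differed. Refed and fed wild-type mice differed in 3839 genes (27.5%), 1846 higher and 1993 lower. The difference between the genotypes in the refed-minus-fed change was called for 25 genes (0.179%), 18 more positive in WT/Y657* mice (0.129%) and 7 more negative (0.0502%), and 1506 genes had an unadjusted p under 0.05. Lipogenesis, with 16 of 22 genes lower in either genotype, fatty acid oxidation, with 31 and 33 of 39 higher, and the proteasome, with 30 of 31 higher in either, held no gene of the 25. In lipogenesis 2 genes were also higher in wild-type mice and none in WT/Y657* mice. The medians of that list were -1.39 in WT/Y657* and -0.88 in wild-type mice, and its median genotype difference was -0.35, beside -0.012 over all genes. The ER list had 14 higher and 6 lower members in WT/Y657* and none higher and 19 lower in wild-type mice (medians 0.10 and -0.35), although against the first fed set 1 was higher and 11 were lower in WT/Y657* mice. For 3 of its genes, Creld2, Syvn1 and Dnajc3, the genotype difference itself was called.

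Of the 25 genes called for the genotype difference, 21 were also called by edgeR between the genotypes in fed mice, and 0 in refed mice, where 15 had an unadjusted p under 0.05. These contrasts use the same libraries. Creld2 rose in WT/Y657* mice (1.28 ± 0.28) against -0.74 in wild-type mice, a difference of 2.02 ± 0.39 (adjusted p = 0.0271). In fed mice it was lower in WT/Y657* than in wild-type mice by -1.62 on the log2 scale (adjusted p = 0.00279), and in refed mice the genotypes differed by 0.39 (adjusted p = 0.673). Mlx, the dimer partner of ChREBP, had the smallest p: it counted 33.3, 36.05 and 41.2 CPM in refed and 24.2, 26.1 and 27.1 CPM in fed mice (log2 fold change 0.51 ± 0.07, adjusted p = 5.31e-07) against a wild-type change of -0.08, a difference of 0.59 ± 0.09 (adjusted p = 0.00433). Fed WT/Y657* mice were lower than fed wild-type mice by -0.39 (adjusted p = 0.00178), and refed mice differed by 0.20 (adjusted p = 0.31). Syvn1, the ubiquitin ligase of ER-associated degradation, gave 1.54 ± 0.29 (adjusted p = 0.0271), and its own call in WT/Y657* mice was lost without 1 of RF6_MT_897, RF6_MT_898, ALC_MT_866, ALC_MT_868 or ALC_MT_869 (adjusted p up to 0.12). Hspb1 gave 1.23 ± 0.27 (adjusted p = 0.0405), Fbp1 -0.80 ± 0.17 (adjusted p = 0.0313) and Gckr -0.49 ± 0.11 (adjusted p = 0.0436). For these 3 the fed genotypes differed by -0.82, 0.75 and 0.37.

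**Figure D5:**
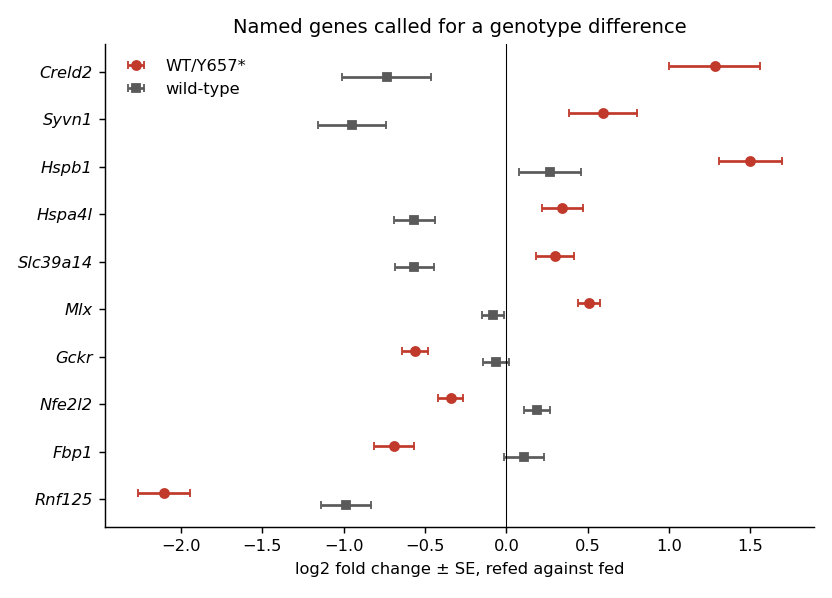
Log2 fold change of refed against fed (± SE) in WT/Y657* and wild-type mice for the 10 named genes whose genotype difference was called. Creld2, Syvn1 and Hspb1 lie higher in WT/Y657* mice, and Rnf125, Fbp1, Nfe2l2 and Gckr lower.

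The number of genes called for the genotype difference rested on few mice, fed and refed. It was 1 without ALC_MT_868 or RF6_MT_898, 2 without ALC_MT_869, 42 without ALC_MT_859 and 60 without ALC_MT_858. Against the first fed set alone 2 genes were called, and against the second alone 481. What set these mice apart was not tested.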

How the data were processed

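Total liver RNA was sequenced from 36 mice as single reads, and the authors deposited 1 table of gene-level estimated counts per mouse (38283 genes, 25285 of them with a count). Of the non-zero values 3.29% were not whole, and all were rounded to whole numbers. The submitters' processing notes name SAMtools, featureCounts, Cuffdiff, edgeR and mm9, with versions not given in the sources used here, while 99.66% of the matched gene loci overlapped GRCm38 (GENCODE M21), to which 36425 of the 38283 identifiers (95.1%) matched. The notes speak of human genes, although the identifiers are of mouse. No strand setting was given, so that overlapping genes may share reads. A second deposited table of fitted counts was not used, because it does not vary between the mice of a group.

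Groups were taken from the labels, and each library was a separate mouse. All 36 libraries (8839488 to 19542775 counts) were fitted together with edgeR 4.0.16 in R 4.3.3 (filterByExpr, TMM, robust quasi-likelihood fit, 1 coefficient per group, 13945 genes tested, common biological coefficient of variation 0.181), with the Benjamini-Hochberg adjustment over all genes tested and a threshold of 0.05. The method was tested on simulated data. No 2 libraries of a group agreed within sampling noise. limma 3.58.1 and DESeq2 1.42.0 served as alternatives, beside other scalings and filters, a correction for GC content and length (98.8% of genes tested had both), fits to fewer libraries and fits that left out each mouse in turn.

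Members and gene lists (25 lists and 10 marker lists) were chosen with earlier results of these data known. The 121 named genes were anchor genes of insulin action, the 10 higher and 10 lower genes with the largest changes, the 5 largest in each direction of the not recovered and overshot classes (all with a mean of at least 1 CPM and no overlap between groups), the 3 members with the smallest p in each list, and the 5 genes with the smallest p for the genotype difference. Other list members are named as examples, and were chosen after their values were seen. Promoter windows (32851, from RefSeq on GRCm38.p6) were searched over the 250 bases before each start. Some list members and genes that this rule took are not reported here, though they stay in the counts. Protein sequences were not used here.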

Additional observations from a re-analysis of the deposited data

Results flagged for a closer look

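Of 242 groups of 6 mice examined for a highest or lowest mouse set apart from the others by Dixon's test at the 95% level, 20 were flagged, over 18 genes, where chance flags about 1 in 20. RF6_MT_810 gave 6 of these. It was highest for Apoa4 (4273 CPM, others 341.5 to 1052), for Gm10680, which overlaps it (3732 CPM, others 310.7 to 889.5), for the ribosomal protein gene Rps27 (57.7 CPM, others 38.5 to 43.9), for Kynu (118 CPM, others 83.2 to 94.1), for Cyp2c55 (3.40 CPM, others 1.60 to 2.22) and for Igfbp2, an IGF-binding protein (467 CPM, others 293 to 335).

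RF6_MT_898 gave 5. The fibrinogen chain genes Fgg (3626 CPM, others 1897 to 2415) and Fga (5269 CPM, others 2645 to 3309) and the growth arrest gene Gadd45g (5.65 CPM, others 2.40 to 3.50) were highest in it, and Ndufv3, a complex I subunit (41.7 CPM, others 51.5 to 53.2), and Gsr, glutathione reductase (111 CPM, others 127 to 132), were lowest. ALC_MT_866 gave 3, being highest for the same fibrinogen genes Fgg (4452 CPM, others 3182 to 3492) and Fga (6377 CPM, others 4623 to 5144) and for Fabp5 (36.3 CPM, others 8.89 to 18.5).

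The other 6 were single flags. They were Acacb in ALC_MT_857 (344 CPM, others 165 to 228), Tfrc in ALC_MT_859 (70.4 CPM, others 48.7 to 56.1), Haao in ALC_MT_869 (503.6 CPM, others 421 to 441), 4930452B06Rik in RF6_MT_814 (0.786 CPM, others 0.145 to 0.385), Ip6k2 in RF6_MT_899 (12.3 CPM, others 6.93 to 8.66) and Tram1, which was lowest in RF6_MT_897 (163 CPM, others 190.5 to 204).

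A difference between the genotypes in the refed-minus-fed change was called by edgeR (Benjamini-Hochberg) for 10 of the named genes. It was positive, that is, higher in WT/Y657* mice, for Creld2 (2.02 on the log2 scale), Syvn1 (1.54), Hspb1 (1.23), Hspa4l (0.91), Slc39a14, a zinc importer (0.86), and Mlx (0.59). It was negative for Gckr (-0.49), Nfe2l2, which encodes NRF2 (-0.53), Fbp1 (-0.80) and Rnf125 (-1.12). In Rnf125 both genotypes fell (-2.11 and -0.99), and in Slc39a14 the WT/Y657* change alone was not called (0.30, adjusted p = 0.0549).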

How the results depend on the processing

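Counts of genes higher, lower and in each recovery class kept within 1.5 times of those reported under most of the 29 settings in which each was taken. The count for the genotype difference did not, and ran from 1 to 481. With DESeq2 1846 genes were higher and 1964 lower. Leaving out each mouse in turn gave 1521 to 1824 higher, 1540 to 1884 lower, 1782 to 2099 returned, 1274 to 1726 not recovered, 149 to 199 overshot and 783 to 905 undetermined genes, and 1 to 60 genes for the genotype difference. With refed and fasted mice of the higher-numbered series 1173 were higher, 1162 lower, 1007 not recovered and 72 overshot, and with the lower-numbered series 940 were not recovered. Against the second fed set 1131 were higher, 958 not recovered and 101 overshot, and against the first 66 overshot. Overshot genes numbered 127 with no filter on low counts, 122 in the 18 WT/Y657* libraries alone and 519 among genes that the fast changed in wild-type mice, which share no mouse with the refeeding contrast. A narrower margin for returned genes left 1036 returned and 1756 undetermined, a margin of 2-fold left 322 undetermined, and at least 10 counts in every library 432 undetermined. The genotype difference was called for 53 genes by the likelihood ratio test, 9 under scaling by library size, 15 with no filter, 1 and 8 in the lower- and higher-numbered series, and 2 and 481 against the first and the second fed set. The cause was not tested, beyond that several of these fits hold fewer mice.

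Signs turned for 4 named genes, none of them called in the comparison reported: Xbp1 (-0.022 after the GC and length correction, -0.002 in the higher-numbered series, -0.055 against the first fed set), Nsdhl (0.35 in the lower-numbered series, 0.36 against the second fed set), Pck1 (-0.326 and -0.057 in the same fits) and Pik3r1 (-0.10 against the first fed set). Of 111 named genes called, 7 lost the call in at least 1 fit that left out a mouse: Gadd45b, Hspa4l, Ifit2, Mlxipl, Mvk, Rsad2 and Syvn1. Calls were lost for 5 of them after the GC and length correction (Clock, Gadd45b, Hars, Mlxipl and Rictor), 2 under scaling by library size, 14 against the first fed set, 7 against the second, 7 in the lower- and 11 in the higher-numbered series, and none with DESeq2. Calls were gained for 3 named genes after the GC and length correction (Pik3r1, Srebf2 and Slc39a14) and for 3 against the second fed set (Pik3r1, Srebf2 and Dgat2). No paired analysis was possible because the mouse numbers are unique and no number is shared between groups. Depth, at 11375514 counts or more in these 12 libraries, limits the genes near 1 CPM most.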

Other observations

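Of 30 tested acute phase genes, which the liver switches on in inflammation, 3 rose and 3 fell in WT/Y657* mice (median log2 fold change 0.02), which is no more than the 13% higher and 13.1% lower of all genes, while in wild-type mice none rose and 17 fell (median -1.12), and no member was called for the genotype difference itself. Hp, haptoglobin, counted 2816, 3872 and 9023 CPM (lowest, median and highest) in refed and 1797, 2318 and 2951 CPM in fed WT/Y657* mice (log2 fold change 0.95 ± 0.31, adjusted p = 0.0235 by edgeR). The 3 fibrinogen chain genes fell, Fga by -0.62 ± 0.19, Fgg by -0.61 ± 0.17 and Fgb by -0.49 ± 0.19, and Fga and Fgg lost their calls against the first fed set and with the second refed set. Without RF6_MT_898 1 member rose in place of 3, and against the first fed set 1 rose and none fell. Interferon-stimulated genes gave 1 higher (Stat2, 0.46 ± 0.13) and 2 lower of 32, none of them lower without RF6_MT_897, RF6_MT_899, ALC_MT_866 or ALC_MT_868 and 4 lower without RF6_MT_898 or ALC_MT_859. Against the first fed set 3 were higher and none lower, with Stat2 at 0.43 (adjusted p = 0.0505), and against the second 1 was higher and 8 were lower. Their median, -0.24, was 0.15 against the first fed set and -0.49 against the second, and the median of the 12 macrophage markers moved alongside, -0.27 overall and 0.40 and -0.70 in these fits. The part of these cells in the result was not tested.

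The counts of the remaining lists are read against the same 13% and 13.1%. Of 27 tested cell cycle genes 5 fell and none rose, and 3 fell against the first fed set. Mki67, a marker of dividing cells, counted 1.23, 1.52 and 2.38 CPM in refed and 1.79, 5.63 and 14.3 CPM in fed mice (-2.20 ± 0.33, adjusted p = 6.68e-06, and -1.44 against the first fed set), and Rrm2, a subunit of ribonucleotide reductase, fell by 1.76. Of 15 genes of the growth hormone axis 6 fell, among them Ghr, the receptor (-0.51 ± 0.12), Stat5b (-0.68 ± 0.08) and Igf1 (-0.34 ± 0.09), and 3 rose, among them Igfbp2 (0.95 ± 0.20). Of 20 autophagy genes 8 fell and 2 rose, with 5 lower against either fed set and 3 with the second refed set, Bnip3, a receptor of mitophagy, rising by 1.02 ± 0.09 and Ulk1, the initiating kinase, falling by 0.98. Of 27 members of the P450 list 6 rose and 7 fell, or 2 and 8 against the second fed set. The list also holds Nr1i3, which encodes the receptor CAR and not a P450, and which had its largest rise (1.76 ± 0.29). Cyp2c70, which hydroxylates bile acids, stood at -2.07 ± 0.25. Near-identical Cyp2c copies may share reads. Of 17 NRF2 target genes 4 rose and 2 fell, or 3 and 5 against the second fed set, Srxn1, sulfiredoxin, leading with 0.76 ± 0.10. Of 21 immediate early genes 3 fell and 1 rose, with Gadd45g at -2.62 ± 0.64 and Dusp1, a MAP kinase phosphatase, at -1.25 ± 0.33, and 6 fell without RF6_MT_898 and none with the second refed set, where Gadd45g and Dusp1 lost their calls (adjusted p = 0.0529 and 0.0914).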
